A study of Mus musculus with 57 samples.

Results

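Knockout mice for P2ry12 were compared with wild-type littermates under lipopolysaccharide (LPS) in CD11b-positive cells of the brain, which the labels call microglia. LPS, a component of the wall of Gram-negative bacteria that provokes inflammation, was injected into the peritoneum at 1 mg/kg. The comparison holds 13 of the 57 libraries of the series, 7 labelled WT LPS and 6 labelled KO LPS. They belong to an experiment of 33 libraries that also has the groups WT ns and KO ns, a label that the submitters do not define and that is used here as written. The genotypes are wild type (WT) and P2RY12 deficient (KO), and the labels give neither the age or sex of these animals nor the design of the knockout allele. Samples were chosen by their counts of 2 genes: every library of number 2 was left out, since P2ry12 and the acute-phase gene Saa3 in the WT libraries of that number went against the treatment labels. The counts of WT LPS 8 and WT LPS 9 were nearly identical (chi-square over its degrees of freedom 1.86, where the lowest value of another pair was 10.6), and the pair was summed as 1 sample. This left 6 samples of WT LPS and 6 of KO LPS. The same choice left 6 samples of WT ns and 6 of KO ns, which entered the model to share the estimate of the spread. A further experiment of the series, called the sex experiment here, has 18 other animals (4 WT and 5 KO males, 4 WT and 5 KO females) and is used for values of the same genes. That libraries are separate animals is not stated for each, so p-values measure the spread between these samples.

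P2RY12 is a receptor for ADP that couples to inhibitory G proteins. Microglia carry it on their resting, branched processes and use it to steer those processes towards nucleotides released by damaged cells. It is widely used as a marker of homeostatic microglia, and its transcript falls when these cells meet LPS.

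Total counts ran from 18 to 52.4 M (mega) in WT LPS, the highest being the summed pair, and from 21 to 45.3 M in KO LPS. Levels below are in CPM, the counts of a gene per M counts of its library, with totals scaled by edgeR's TMM method. The library WT LPS 7 stood apart. Its median correlation with the other 11 samples was 0.886, while each of the others had 0.977 to 0.983, and its TMM factor was 0.641, against 1 to 1.082 in the others. KO ns 6 had a TMM factor of 0.7. Each leading count is therefore also given without WT LPS 7, and without both. Xist, the RNA that silences an X chromosome in females, was at 0.677 to 2.1 CPM in library set 1 and at 824 to 1360 CPM in set 2, and the Y-linked Ddx3y was at 94.9 to 136 and 0 to 0.518 CPM. The library sets, told apart by the first number in the library names, thus differ in these sex-linked transcripts. By them all 12 samples of set 1 read as male and all 12 of set 2 as female, so set and sex cannot be told apart. Each set holds 3 samples of either genotype under LPS, and the set was a covariate.

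P2ry12, the targeted gene, lies on chromosome 3 of the mouse build GRCm39 from 59123692 to 59170408 on the minus strand. It ran from 395 through a median of 506 to 1118 CPM in WT LPS, and from 83.6 through 99.1 to 111 CPM in KO LPS. All 6 KO samples lay below all 6 WT samples. The KO mean of 97.0 ± 11.0 CPM (SD, n = 6) was 16.6% of the WT mean of 585 ± 270 (SD, n = 6). Without WT LPS 7, the highest WT sample, the WT mean was 479 ± 76.8 (SD, n = 5) and KO had 20.3% of it. P2ry12 counts remained in KO, with at least 1863 counts in each library. A gene-level count does not show which exons they cover. Saa3, which encodes a serum amyloid A protein induced by LPS in myeloid cells, ran from 1418 through 1806 to 10230 CPM in WT LPS and from 1023 through 1301 to 1380 in KO LPS. Since the counts of both genes chose the libraries, they were not tested.

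Besides P2ry12, few genes differed between KO and WT under LPS. Of 15814 genes tested, 13 were called (0.0822%; edgeR's quasi-likelihood test, Benjamini-Hochberg adjusted p under 0.05), 8 higher in KO (0.0506%) and 5 lower (0.0316%). The 5 lower were the chemokine receptor gene Ccr1l1, Lrmda, Rxfp1, Tmem267 and Tdo2. Those higher were Rab4a, Ppp1r1b, Rxrg, AC161884.1, Liph, Camk2b, Hpca and Nrgn. Under an unadjusted p of 0.05 there were 1050 genes. The number of calls depended on the libraries, with 9 calls without WT LPS 2, 22 without WT LPS 5, 3 to 5 without any 1 of the other 10 LPS samples (5 without WT LPS 7) and 34 without WT LPS 7 and KO ns 6, the 34 including all 13. A fit of WT LPS and KO LPS alone gave 0 calls with edgeR, with 703 genes under an unadjusted p of 0.05, and 18 calls once WT LPS 7 was left out, 6 of them among the 13. DESeq2 called 77 genes, all 13 included. Ccr1l1, Lrmda and Rxfp1 were called in each of the 12 fits that left out 1 LPS sample, and the other 10 lost their call in 5 or more of those fits.

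**Figure D1:**
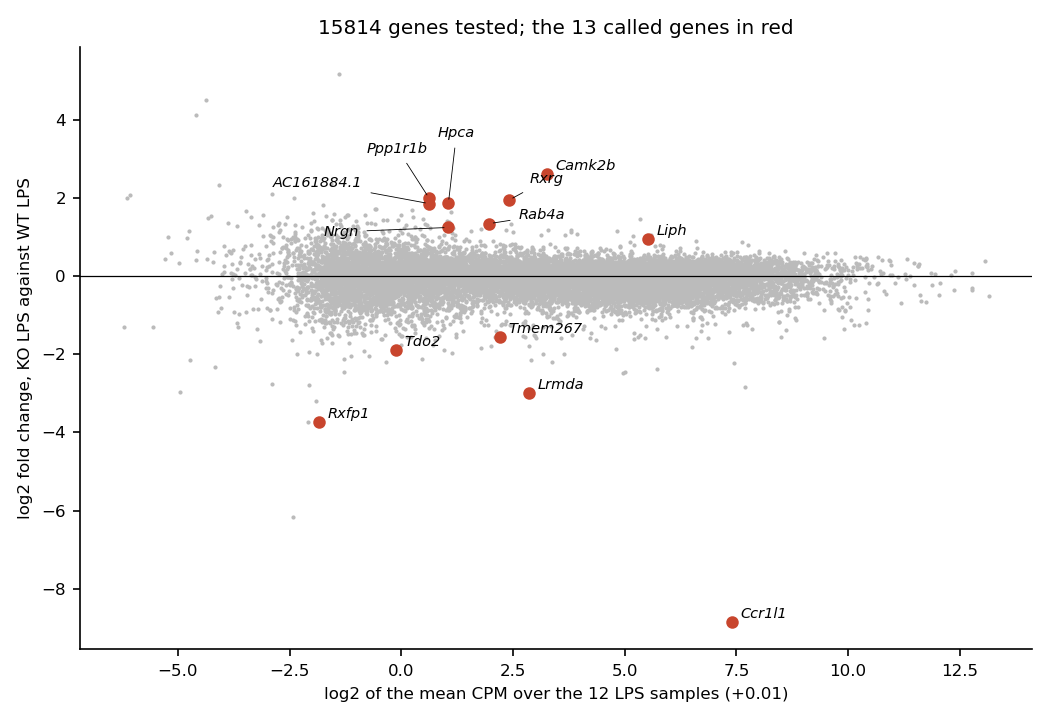
Log2 fold change of KO LPS against WT LPS for the 15814 genes tested, plotted against the log2 of the mean CPM over the 12 LPS samples. The 13 called genes are in red and named; Ccr1l1 lies lowest, at -8.84, and 8 called genes lie above 0.

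Ccr1l1 had by far the largest fold change of the called genes. It encodes a receptor-like protein of the C-C chemokine receptor family and lies on chromosome 9 from 123776467 to 123786752 on the minus strand, next to Ccr1, at 123762163 to 123768729 on the same strand. In WT LPS its level ran from 1.21 through a median of 338 to 538 CPM, and in KO LPS from 0.357 through 0.705 to 1.11 CPM. Of the WT samples, 5 lay between 271.1 and 538.2 CPM, and WT LPS 5, with 26 counts, lay just above the highest KO sample. The log2 fold change was -8.84 ± 0.94 (SE, adjusted p 5.56e-05), -8.66 without WT LPS 7 and -9.1 without WT LPS 5. Within library set 1 it was -8.54 (edgeR adjusted p 6.5e-05). Within set 2, which holds WT LPS 5 and WT LPS 7, it was -9.21 and not called (edgeR adjusted p 0.931). With the 2 LPS groups alone Ccr1l1 was not called either (edgeR adjusted p 0.0664). P2ry12 in WT LPS 5 was at 542 CPM, inside the WT range. At ns, WT ran from 93.0 through 166 to 288 CPM and KO from 1.45 through 1.85 to 8.90 CPM, which is -5.91 ± 0.82 on the log2 scale (adjusted p 0.00108). In the sex experiment the medians were 4.93 CPM in WT and 4.10 in KO, and the log2 difference was -0.22 ± 0.15 (adjusted p 0.747). The difference seen in both groups of the LPS experiment was thus not called in the other animals, where the WT level was low too.

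Ccr1 and Ccr1l1 are neighbours of the same receptor family, so their coding sequences were compared to see whether reads could be exchanged between them. Both were taken from the GENCODE M21 transcripts on build GRCm38. The coding sequences have 1068 and 1071 bases and were identical at 75.9% of 1072 aligned columns. The stretch that holds their longest exact shared run is shown, as bases 141 to 290 of Ccr1 and 144 to 293 of Ccr1l1, counted from the first base of the start codon. Capitals mark the 23 positions at which the bases differ.
Ccr1: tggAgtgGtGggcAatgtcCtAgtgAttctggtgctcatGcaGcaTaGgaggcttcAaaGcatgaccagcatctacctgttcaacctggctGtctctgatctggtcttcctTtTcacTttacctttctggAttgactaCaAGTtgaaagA
Ccr1l1: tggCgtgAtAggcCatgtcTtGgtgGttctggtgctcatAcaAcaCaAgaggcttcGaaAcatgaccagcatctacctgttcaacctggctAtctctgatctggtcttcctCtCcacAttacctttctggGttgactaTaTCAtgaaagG
The longest run that both share without a difference was 31 bases, and 0 of the 1019 windows of 50 bases in Ccr1 occurred in Ccr1l1. No stretch of 50 coding bases of Ccr1 thus fits Ccr1l1 without a difference. Reads with mismatches and the untranslated parts were not compared. Ccr1 itself, the receptor for chemokines such as CCL3 and CCL5, was not called. It ran from 92.3 through 114 to 287 CPM in WT LPS and from 27.9 through 38.2 to 54.4 in KO LPS, with all KO samples below all WT samples. Its log2 fold change was -1.82 ± 0.41 (edgeR adjusted p 0.135), and -1.57 without WT LPS 7 (edgeR adjusted p 0.35). DESeq2 did call Ccr1 (adjusted p 0.00285), as did edgeR with the 2 LPS groups alone once WT LPS 7 was left out. Of the list of chemokine receptors around Ccr1, 8 of 9 members were tested. With edgeR Ccr1l1 was the 1 called, and DESeq2 called Ccr1 and Ccr1l1. The list's median log2 fold change was -0.60, and -0.05 without WT LPS 7, beside -0.01 for all genes tested.

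Lrmda, which encodes a leucine-rich repeat protein linked to melanocyte differentiation, lies on chromosome 14 from 22069567 to 23106161. Its level in WT LPS was 5.55 through 8.08 to 36.8 CPM and in KO LPS 1.27 through 1.53 to 1.83. The groups did not overlap, and the highest WT value was that of WT LPS 7, the next being 12.0. The log2 fold change was -3.00 ± 0.41 (adjusted p 0.00193), and -2.48 without WT LPS 7 (adjusted p 0.00128). At ns it was -1.87 ± 0.40 (adjusted p 0.0908), with KO ns 6 inside the WT range. In the sex experiment, where counts cover the introns as well, it was 0.09 ± 0.08 (adjusted p 0.875).

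Rxfp1, the receptor of the hormone relaxin, had few counts under LPS. The 6 WT samples held 86 counts in all and the 6 KO samples held 6, with 0 to 2 in a KO library, so KO had 6.49% of WT (exact binomial 95% interval of the summed counts 2.32% to 14.7%, counting error only). The groups did not overlap, at 0.370 to 0.677 CPM in WT and 0 to 0.0849 in KO. The log2 fold change was -3.73 ± 0.57 (adjusted p 0.00648). At ns WT was higher, at 3.94 through 6.91 to 12.2 CPM, against 0 through 0.0467 to 0.203 in KO, which is -6.72 ± 0.51 on the log2 scale (adjusted p 9.58e-08). In the sex experiment the medians were 4.67 CPM in WT and 1.61 in KO, with a log2 fold change of -1.56 ± 0.47 that edgeR did not call (adjusted p 0.276).

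Tdo2 and Tmem267 completed the genes lower in KO. Tdo2, a dioxygenase that opens the ring of tryptophan, was at 0.741 through 1.04 to 3.85 CPM in WT LPS and 0.212 through 0.367 to 0.518 in KO LPS. Its log2 fold change was -1.89 ± 0.35 (adjusted p 0.0325). Tmem267, a transmembrane protein gene, was at 4.08 through 5.46 to 14.1 CPM in WT LPS and 2.05 through 2.26 to 2.58 in KO LPS (log2 fold change -1.57 ± 0.29, adjusted p 0.0325). For both genes the groups did not overlap and WT LPS 7 was the highest sample. Without it the log2 fold changes were -1.45 (adjusted p 0.0595) and -1.29 (adjusted p 0.0625), so neither was called. In the fit without WT LPS 7 and KO ns 6, added after seeing the data, both were called (edgeR adjusted p 0.0117 each). At ns the log2 fold changes were -0.96 ± 0.34 for Tdo2 and -0.17 ± 0.28 for Tmem267, neither called.

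Among the genes higher in KO, Rxrg encodes retinoid X receptor gamma, a nuclear receptor that binds DNA as a partner of retinoic acid, thyroid hormone and other receptors. It ran from 0.900 through 1.62 to 4.89 CPM in WT LPS and from 4.60 through 7.82 to 14.8 in KO LPS. The groups overlapped only at WT LPS 5, the highest WT sample, which lay above the lowest KO sample. The log2 fold change was 1.94 ± 0.34 (adjusted p 0.029), 1.83 without WT LPS 7 (adjusted p 0.0625) and 2.3 without WT LPS 5 (adjusted p 0.00185). Without WT LPS 7 and KO ns 6 it was 1.82 (edgeR adjusted p 0.0184). At ns it was 2.17 ± 0.35 (adjusted p 0.00526), with no overlap between 0.755 to 1.55 CPM in WT and 3.42 to 7.30 in KO. In the sex experiment it was 1.27 ± 0.28 (adjusted p 0.0623), with medians of 2.29 CPM in WT and 4.67 in KO. Of 16 tested nuclear receptors and targets on the list of retinoid X receptor partners, Rxrg was the 1 called, and the median log2 fold change was 0.09, or -0.04 without WT LPS 7. The lipid transporter gene Abca1 (0.18 ± 0.20), Mylip (0.11 ± 0.17), which encodes a ligase that degrades the LDL receptor, and Abcg1 (0.37 ± 0.27) were not called.

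Camk2b, Hpca, Nrgn and Ppp1r1b were also called higher in KO. Camk2b, the beta subunit of calcium/calmodulin-dependent protein kinase II, ran from 0.222 through 2.29 to 5.75 CPM in WT LPS and from 12.0 through 16.7 to 19.8 in KO LPS (log2 fold change 2.6 ± 0.49, adjusted p 0.0325). Hpca, which encodes the calcium sensor hippocalcin, was at 0.477 through 0.892 to 1.42 CPM in WT LPS and 1.71 through 3.13 to 5.44 in KO LPS (1.86 ± 0.35, adjusted p 0.0374). Nrgn, neurogranin, which binds calmodulin at synapses, was at 0.795 through 1.30 to 1.56 CPM in WT LPS and 2.19 through 2.85 to 4.32 in KO LPS (1.24 ± 0.24, adjusted p 0.0374). None of these genes had overlapping groups. Ppp1r1b, a phosphatase inhibitor regulated by dopamine and cAMP, was likewise without overlap, at 0.318 through 0.553 to 1.08 CPM in WT LPS and 1.12 through 2.66 to 3.85 in KO LPS (1.98 ± 0.34, adjusted p 0.0268). Hpcal4, a relative of Hpca, was next by p and not called (1.70 ± 0.35, adjusted p 0.0601). Without WT LPS 7 the log2 fold changes were 2.36, 1.80, 1.26 and 1.92 for Camk2b, Hpca, Nrgn and Ppp1r1b, each with an adjusted p between 0.0595 and 0.089. In the fit without WT LPS 7 and KO ns 6, added after seeing the data, all were called (edgeR adjusted p 0.0231 to 0.0326). At ns, in the same order, the log2 fold changes were 1.66 ± 0.47, 1.71 ± 0.36, 1.19 ± 0.24 and 1.37 ± 0.35, none called. In the sex experiment, where counts cover the introns as well, the same genes had log2 fold changes of -0.03 ± 0.19, 0.33 ± 0.34, -0.01 ± 0.27 and -0.09 ± 0.37. Camk2b had a WT median of 156 CPM there.

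Markers of neurons were measured beside them. All 10 neuron markers were tested, 0 were called with edgeR or DESeq2, 2 were under an unadjusted p of 0.05, both higher, 7 were higher in KO by sign, and the median log2 fold change was 0.22, or 0.31 without WT LPS 7. Their summed level was 4.63 through 7.06 to 12.4 CPM in WT LPS and 8.22 through 10.1 to 13.1 in KO LPS, so the groups overlapped. At ns their median log2 fold change was 0.93, beside -0.04 for all genes, and 1 was called, against 0.0759% of all genes. Their summed level at ns was 3.25 to 7.85 CPM in WT and 6.43 to 19.5 in KO. The highest value was that of KO ns 6, and the next in KO ns was 11.8 CPM. The synaptic vesicle gene Snap25, the most abundant of the markers, was at 1.53 to 4.84 CPM in WT LPS and 4.14 to 6.37 in KO LPS (0.90 ± 0.32, adjusted p 0.638). Syt1 (-0.27 ± 0.51) and Rbfox3 (0.82 ± 0.30) were not called either. The part of RNA from neurons in the levels of Camk2b, Hpca, Nrgn and Ppp1r1b was not tested. In bulk samples, more cells of a type and more RNA per cell cannot be told apart.

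The remaining called genes have other roles. Rab4a, a small GTPase that returns endocytosed receptors to the cell surface, was at 0.741 through 2.42 to 3.03 CPM in WT LPS and 3.94 through 5.76 to 7.02 in KO LPS (1.34 ± 0.23, adjusted p 0.0268). It remained called without WT LPS 7, the lowest sample (1.16, adjusted p 0.00529). Liph, a phospholipase that makes lysophosphatidic acid, was at 21.9 through 26.2 to 45.2 CPM in WT LPS and 50.6 through 59.6 to 71.4 in KO LPS (0.94 ± 0.17, adjusted p 0.0325). AC161884.1, a gene model with no position in the deposited coordinates, was at 0.265 through 0.561 to 1.70 CPM in WT LPS and 1.83 through 2.20 to 2.99 in KO LPS (1.85 ± 0.33, adjusted p 0.0309). Liph was not called without WT LPS 7 (0.88, adjusted p 0.0676), and it kept its call in 2 of the 12 fits that left out 1 LPS sample. Without WT LPS 7 and KO ns 6 it was called (0.87, edgeR adjusted p 0.02). For all 3 genes the KO samples lay above the WT samples. WT LPS 7 was the WT sample nearest to KO for AC161884.1, and without it the log2 fold change was 2.15 (adjusted p 0.00222).

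**Figure D2:**
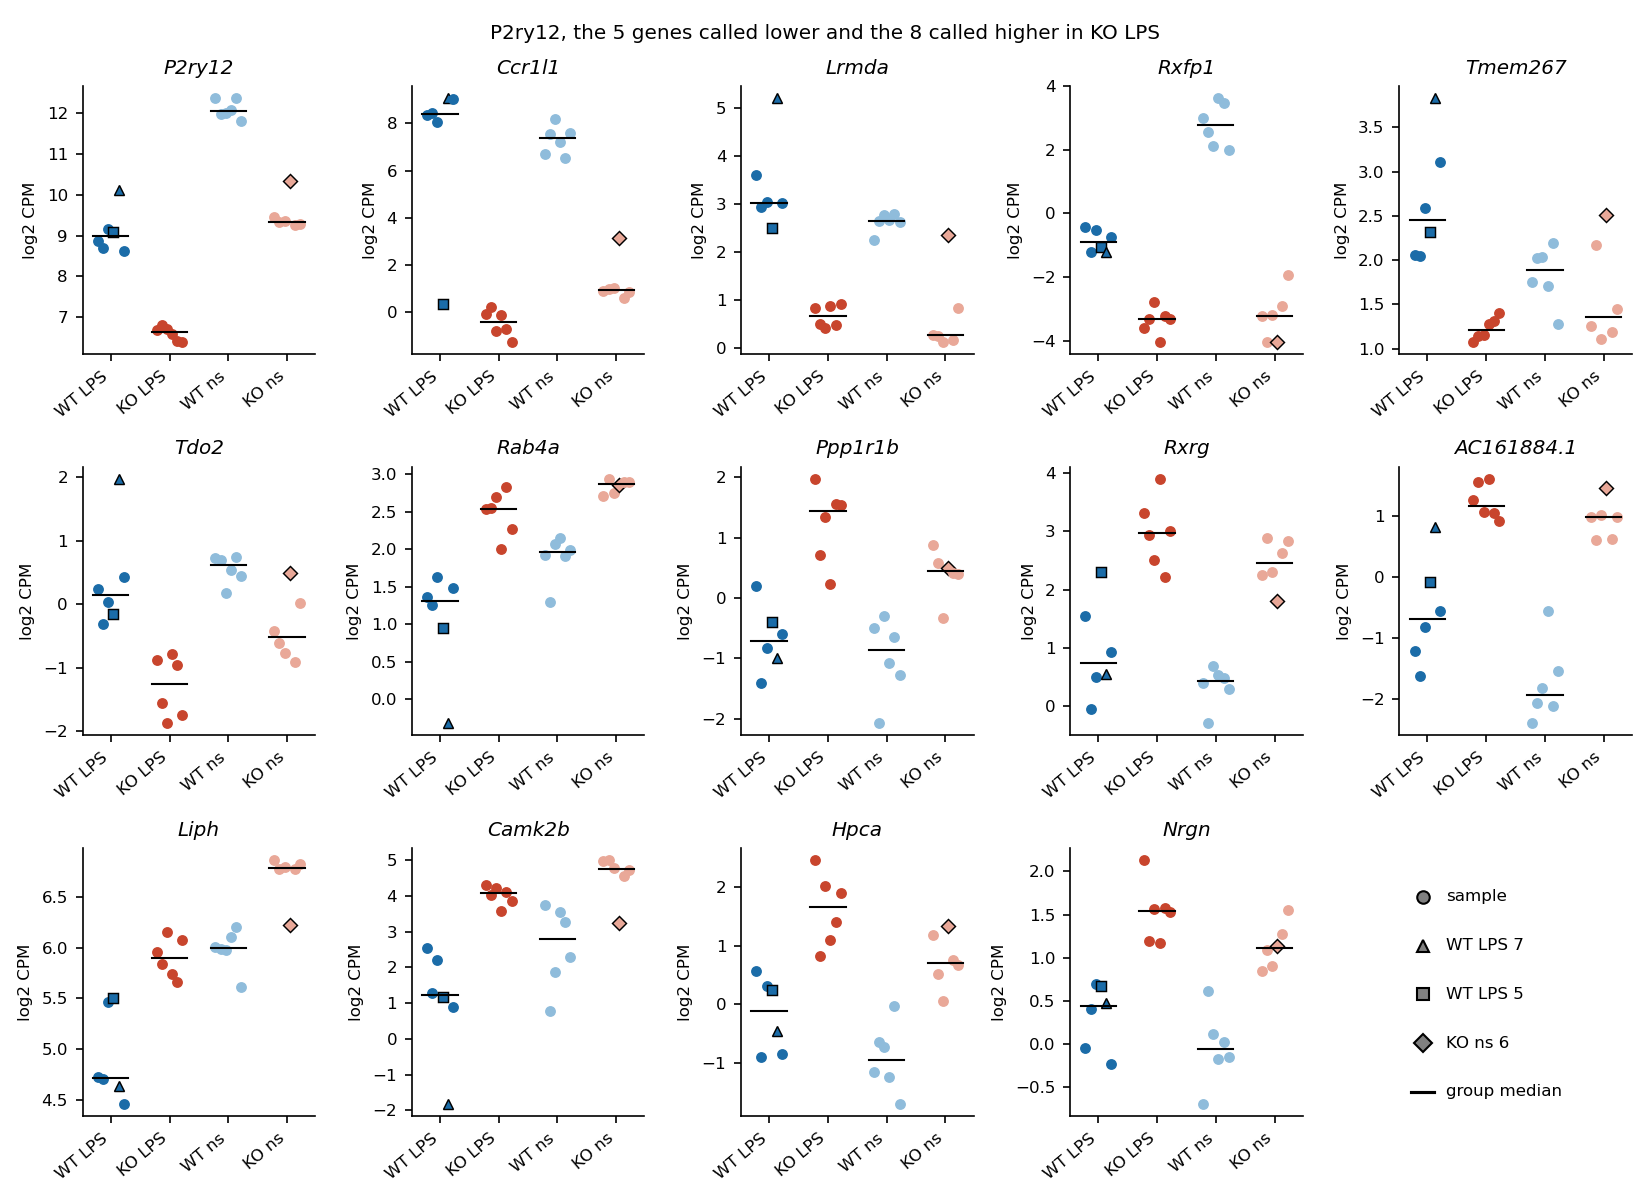
Log2 CPM (prior count 2) of P2ry12 and of the 13 called genes in each of the 24 samples, by group, with a bar at the group median. Triangles mark WT LPS 7, squares WT LPS 5 and diamonds KO ns 6; the KO LPS samples lie apart from the WT LPS samples in every panel but that of Rxrg.

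In all, 12 of the 13 called genes had KO and WT samples under LPS that did not overlap, while 0.752% of all genes tested had none. The same contrast gave both values, so the second adds no support to the calls. Every called gene had the same sign in library set 1 and in library set 2. Set 1 alone called 14 genes, 4 of them among the 13, and set 2 alone called 0 with edgeR, with 246 genes under an unadjusted p of 0.05.

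The ns groups gave values from samples other than those labelled LPS. All 13 genes had the same sign at ns as at LPS, and 4 were called there, against 0.0759% of all genes: Ccr1l1, Rxfp1, Rxrg and AC161884.1. The KO and WT samples at ns did not overlap for 8 of the 13, against 1.47% of all genes. The absolute fold change was larger at LPS for 10 of the 13, the selection of the 13 by their values at LPS being part of that count. Whether the genotype difference itself differed between LPS and ns was tested as an interaction, which gave 0 calls with edgeR, 1574 genes under an unadjusted p of 0.05, and 6 calls with DESeq2. For Ccr1l1 the difference of the log2 fold changes was -2.93 and for Tmem267 -1.39, while for Rxfp1 it was 2.99 and for AC161884.1 -1.05. These 4 had an unadjusted p under 0.05 and an adjusted p of 0.457. In the sex experiment 12 of the 13 genes were measured, 7 with the same sign as at LPS, and 0 were called with edgeR, against 0.432% of all genes there. Counts there cover the introns as well, and Saa3 had medians of 0.0483 CPM in WT and 0.081 in KO. Of the 12, 4 were under an unadjusted p of 0.05 (2860 of 31709 over all genes), and DESeq2 called Rxrg and Rxfp1.

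**Figure D3:**
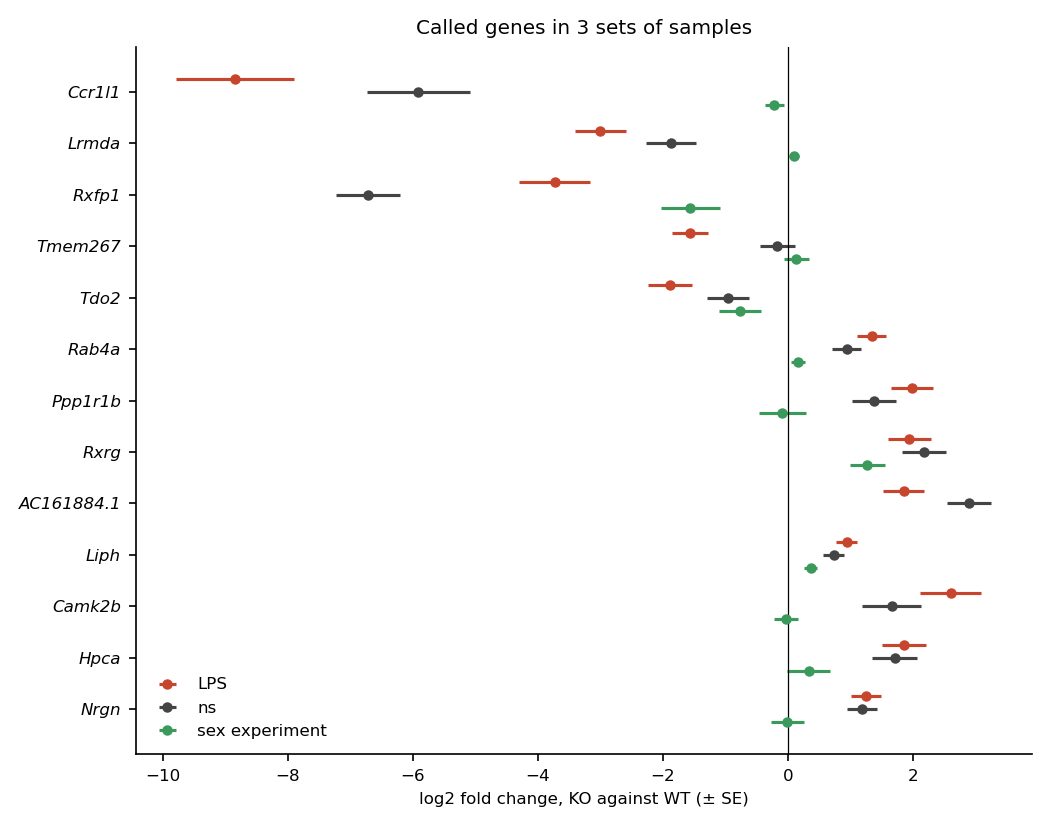
Log2 fold changes of KO against WT (± SE) for the 13 called genes at LPS (red), at ns (grey) and in the sex experiment (green), which has no value for AC161884.1. The LPS and ns points lie on the same side of 0 for all 13 genes; in the sex experiment 7 of 12 do.

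The place of these genes relative to P2ry12 was examined because a targeted allele is inherited together with the chromosome around it. Rxfp1 and Tdo2 lie on chromosome 3, from 79548910 to 79645258 and from 81865719 to 81883035, 20.4 and 22.7 Mb from P2ry12. Chromosome 3 thus held 2 of the 12 called genes with a position (16.7%) and 4.65% of the genes tested with one. Within 25 Mb of P2ry12 there were 123 tested genes (0.894% of those with a position), 2 of them called (16.7% of the called). That distance was chosen with earlier results of these data known. Tdo2 kept its call in 1 of the 12 fits that left out 1 LPS sample. Within 10 Mb there were 66 (0.48%), 0 of them called with edgeR and 11 under an unadjusted p of 0.05. DESeq2 called 4 of the 66 (Slc7a11, Gpr171, Med12l and, named after its values were seen, Dclk1). Over all 15814 genes tested, 1050 were under an unadjusted p of 0.05 and DESeq2 called 77. Med12l, a Mediator subunit gene whose span encloses P2ry12 on the other strand, was at 14.0 through 27.6 to 36.6 CPM in WT LPS and 40.5 through 48.0 to 53.5 in KO LPS. It did not overlap and was not called (0.80 ± 0.18, adjusted p 0.123), but was called without WT LPS 7 and KO ns 6 (0.64, adjusted p 0.0103). At ns it was 0.07 (adjusted p 0.848). Med12l was called lower in KO in the sex experiment, with medians of 6618 CPM in WT and 969.5 in KO (-2.68 ± 0.10, adjusted p 1.87e-12). Counts there cover whole gene spans, so those of Med12l and P2ry12 cannot be told apart if the strand was not used. P2ry13, a further ADP receptor gene, was at 233 through 397 to 1139 CPM in WT LPS and 144 through 217 to 238 in KO LPS (-1.17 ± 0.37, adjusted p 0.515). It had -1.41 ± 0.37 at ns (adjusted p 0.293), and in the sex experiment it was called lower (-1.96 ± 0.13, adjusted p 2.33e-07), with medians of 1664 CPM in WT and 422.5 in KO. Gpr171, a further G-protein-coupled receptor gene, was at medians of 1.5 and 0.527 CPM in WT LPS and KO LPS (-1.54 ± 0.41, adjusted p 0.279), and was called without WT LPS 7 and KO ns 6 (-1.42, adjusted p 0.0406). At ns it had -0.37 ± 0.39 and in the sex experiment -0.05 ± 0.26, neither called. Genes whose spans overlap can share reads, and the strand setting of the counting is not given in the sources used here. Of 19 tested genes within 2 Mb (0.138% of those with a position), 0 were called with edgeR. Under an unadjusted p of 0.05 there were 6, and DESeq2 called Gpr171 and Med12l, beside the 1050 and 77 over all genes. The median log2 fold change of the 19 was -0.40, beside -0.01 for all genes tested.

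**Figure D4:**
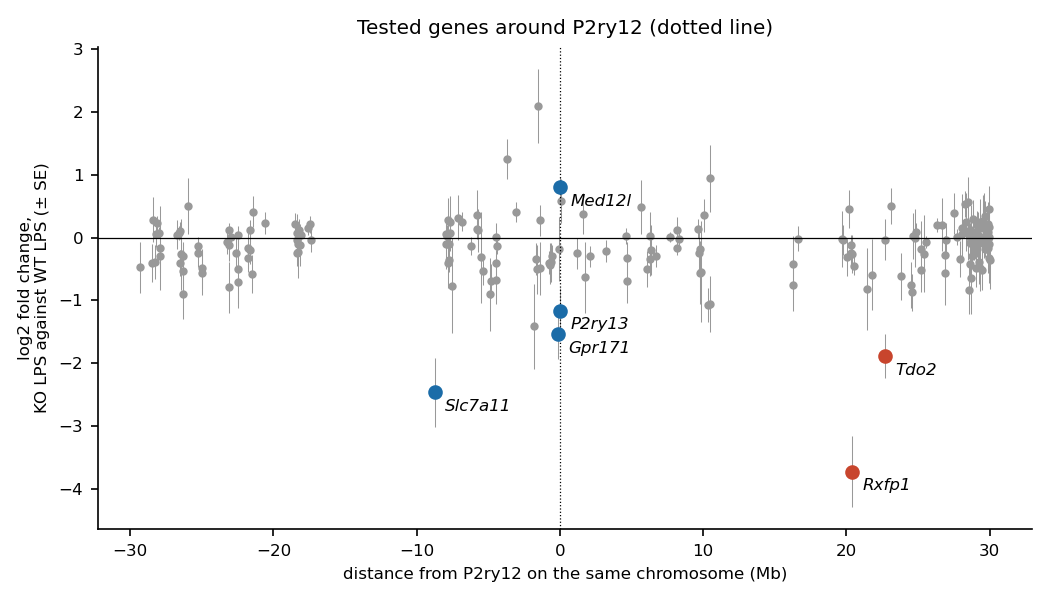
Log2 fold change of KO LPS against WT LPS (± SE) of tested genes within 30 Mb of P2ry12, against their distance from it. Rxfp1 and Tdo2, in red at 20.4 and 22.7 Mb, are the called genes; the genes named in blue were not called.

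The genes next in order of p were not called, and most, though not Slc7a11 and Afm, had groups that did not overlap. Of all genes tested, 0.752% had no overlap. The same contrast ranked these genes, so their lack of overlap adds no support. Traf1, an adaptor of tumour necrosis factor receptors, was at 6.60 through 8.68 to 12.3 CPM in WT LPS and 3.65 through 4.44 to 5.98 in KO LPS (-0.96 ± 0.19, adjusted p 0.0571). At ns Traf1 was called, with -1.11 ± 0.20 (adjusted p 0.0155). Slc7a11, which imports cystine in exchange for glutamate, overlapped between 8.11 to 126 CPM in WT LPS and 3.49 to 24.6 in KO LPS (-2.47 ± 0.55, adjusted p 0.135). Afm, which encodes a plasma protein that binds vitamin E, had 73 counts in WT LPS and 5 in KO LPS (-3.73 ± 0.84, adjusted p 0.135), and the predicted gene Gm2956 had 67 and 10 (-2.79 ± 0.57, adjusted p 0.0601). Both were called at ns, with -4.42 (adjusted p 0.00116) and -3.72 (adjusted p 0.000206). D330045A20Rik (-1.52 ± 0.30), Gm20109 (-1.54 ± 0.31), Gm21887 (-2.19 ± 0.48) and Cnbd2 (0.72 ± 0.16), a gene with a cyclic-nucleotide-binding domain, had adjusted p-values from 0.0546 to 0.135.

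No gene on the lists of the LPS response was called with edgeR. Of 19 tested cytokines and chemokines, 0 were called and 18 were lower in KO by sign, with a median log2 fold change of -1.13. Without WT LPS 7 the median was -0.11 and 8 of 19 were higher. Under an unadjusted p of 0.05 there were 9 of the 19, 8 of them lower, and DESeq2 called 3 lower, Ccl3, Il6 and Cxcl2, named after their values were seen. Il1b, a central inflammatory cytokine, was at 82.7 through 101 to 2892 CPM in WT LPS and 42.9 through 137 to 268 in KO LPS (-1.55 ± 0.74, adjusted p 0.727). Its WT median lay below the KO median. The chemokine gene Ccl12 (-1.59 ± 0.88) and the cytokine gene Il1a (-1.17 ± 0.58) were not called. Of 23 genes of LPS recognition and NF-kappaB, 0 were called with edgeR or DESeq2, 3 were under an unadjusted p of 0.05, all lower, and the median was 0.00. Cd14, a co-receptor for LPS, had -0.85 ± 0.40 (adjusted p 0.727).

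The antimicrobial and acute-phase genes had a median of -0.75, with 1 of 15 higher by sign, and -0.55 without WT LPS 7, with 0 of 15 higher. With edgeR or DESeq2 0 were called, and 2 were under an unadjusted p of 0.05, both lower. Lcn2, an iron-scavenging protein, was at 710 through 1269 to 2510 CPM in WT LPS and 583 through 762 to 956 in KO LPS (-0.79 ± 0.83, adjusted p 0.79). The scavenger receptor Marco was at 304 through 1027 to 2508 and 562 through 631 to 1060 CPM (-0.88 ± 0.85, adjusted p 0.775), and Ncf1, a subunit of the NADPH oxidase, had -0.19 ± 0.16. Hp, haptoglobin, named after its values were seen, did not overlap, at 116 to 209 CPM in WT LPS and 57.5 to 115 in KO LPS (-0.72 ± 0.63, adjusted p 0.755). Interferon-response genes had a median of 0.22 with 15 of 20 higher, and 0.33 with 19 of 20 higher without WT LPS 7. With edgeR or DESeq2 0 were called, and 2 were under an unadjusted p of 0.05, both higher. Their summed level was 1201 through 1388 to 2233 CPM in WT LPS and 1493 through 1789 to 2089 in KO LPS. In WT LPS 7 and WT LPS 5 it was above every KO sample, and in the other 4 WT samples it was below them. Stat2, a signal transducer of interferon receptors, had 0.31 ± 0.31, Oasl2 0.62 ± 0.30 and Ifitm3 -0.25 ± 0.43.

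Of 15 tested homeostatic microglia genes other than P2ry12, 0 were called with edgeR or DESeq2 and 3 were under an unadjusted p of 0.05, 2 of them higher. By sign 12 were higher in KO, and the median log2 fold change was 0.17, or 0.24 without WT LPS 7. Csf1r, the receptor that microglia need to survive, was at 3772 through 8357 to 8803 CPM in WT LPS and 8911 through 9637 to 10320 in KO LPS, without overlap (0.37 ± 0.22, adjusted p 0.727). The fractalkine receptor Cx3cr1 had 0.06 ± 0.48. Of 17 tested genes of purinergic signalling 0 were called by either tool and 3 were under an unadjusted p of 0.05, with a median of -0.11, or 0.02 without WT LPS 7. P2ry6, the UDP receptor, had 0.05 ± 0.14 and Entpd1, the ectonucleotidase CD39, 0.39 ± 0.15 (adjusted p 0.698). The 23 effectors of P2RY12 had a median of -0.01, 0 calls by either tool and 1 gene under an unadjusted p of 0.05, with Gnai2, an inhibitory G protein subunit, at 0.22 ± 0.17, Arrb2, an arrestin, at -0.11 ± 0.18 and the GTPase Rap1b at -0.41 ± 0.31. Disease-associated microglia genes had a median of 0.00, or 0.21 without WT LPS 7, and 0 of 18 were called by either tool, with 3 higher under an unadjusted p of 0.05. The cathepsins Ctsd (0.31 ± 0.18) and Ctsb (0.25 ± 0.14) and the ferritin chain Fth1 (-0.22 ± 0.17) were its most abundant members. The medians were 0.08 for the 7 MHC class II genes, -0.11 for the 16 glycolysis genes and -0.23 for the 20 immediate early genes, or -0.01, 0.00 and -0.25 without WT LPS 7, with 0 calls by either tool in each and 3, 0 and 0 genes under an unadjusted p of 0.05.

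The sign of the genes encoded by the mitochondrial genome depended on WT LPS 7. Of 9 tested, 0 were called by edgeR or DESeq2, 0 were under an unadjusted p of 0.05 and 0 were higher in KO by sign, with a median of -0.46. Without WT LPS 7 all 9 were higher, with a median of 0.35. Their summed level was 101100 CPM in WT LPS 7, 10040 to 15680 in the other WT LPS samples and 15220 to 16710 in KO LPS. Mt-Co1, a subunit of cytochrome oxidase, was at 4150 through 5397 to 43820 CPM in WT LPS and 6234 through 6513 to 6847 in KO LPS (-0.51 ± 0.57, adjusted p 0.802).

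Markers of other cells that a CD11b sort can hold gave 0 calls in each list, with edgeR and with DESeq2. Under an unadjusted p of 0.05 were 3 endothelial and mural, 2 dendritic, 1 monocyte, 1 B cell and 1 astrocyte marker, and 0 of the other lists. Neutrophil markers had a median of -0.72 (12 tested), and -0.46 without WT LPS 7. Their summed level was 14260 CPM in WT LPS 7, 1861 to 3790 in the other WT samples and 1092 to 2578 in KO LPS, led by the granule genes S100a9 and S100a8. Monocyte markers had a median of -0.69, with 1 of 10 higher, and summed levels of 704 to 3162 CPM in WT LPS and 577 to 952 in KO LPS. T and NK cell markers had a median of -0.71 over 7 tested genes, and the defining T cell genes Cd3e, Cd3d, Cd3g and Trac were too low to be tested. Border-associated macrophage markers had a median of 0.12. Their sum was 769 CPM in WT LPS 7, 3162 to 3833 in the other WT samples and 2508 to 3440 in KO LPS. Outside WT LPS 7 most of that sum was Stab1, at a WT LPS median of 3175 CPM and 2120 to 3190 in KO LPS. The lowest WT LPS value of Stab1 was 283.6 CPM. F13a1 and Mrc1, next in level, had WT LPS medians of 117 and 59.85 CPM, so the low sum does not describe the list's other members. The medians of the other lists were 0.19 for dendritic cells, -0.09 for B cells, -0.19 for astrocytes, -0.10 for oligodendrocytes, 0.30 for endothelial and mural cells and 0.40 for red blood cells, and of the ependymal and choroid plexus markers Ttr alone was tested (0.03 ± 1.19), with 2.3 without WT LPS 7, where it was at 15.2 CPM against a WT LPS median of 0.0233. Without WT LPS 7 the medians were -0.49 for monocytes, -0.85 for T and NK cells, 0.06 for border-associated macrophages, 0.13 for dendritic cells, -0.05 for B cells, -0.05 for astrocytes, -0.23 for oligodendrocytes, 0.15 for endothelial and mural cells and 0.44 for red blood cells. The part of these cells in the called genes was not tested.

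**Figure D5:**
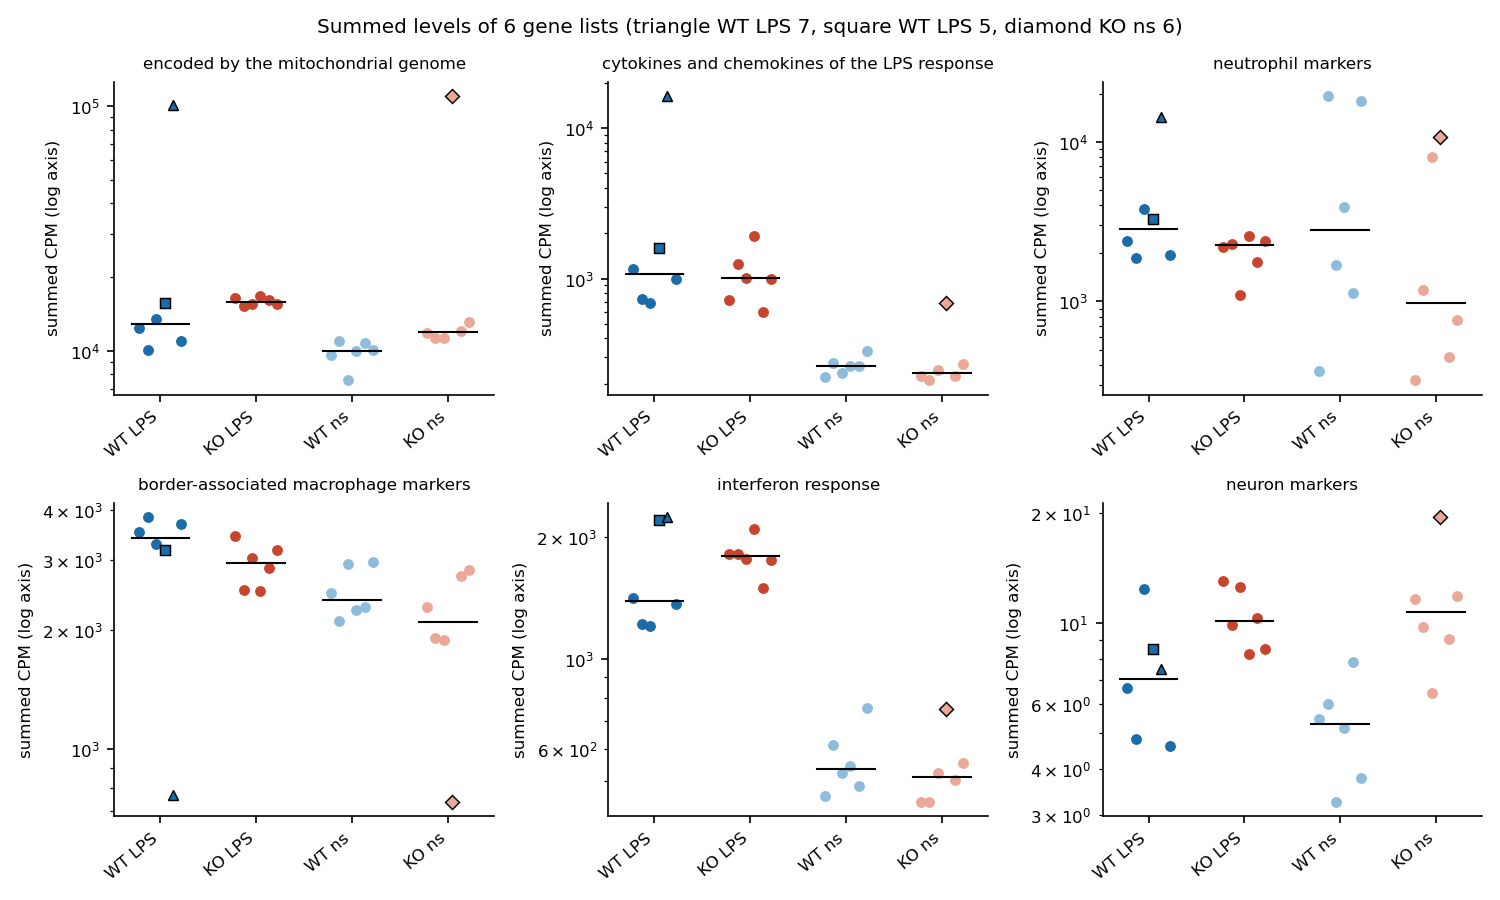
Summed CPM (log axis) of 6 gene lists in each of the 24 samples, with a bar at the group median. The triangle of WT LPS 7 lies at 101100 CPM for the mitochondrial genes, above 15680 CPM in the other WT LPS samples. It is the lowest WT LPS sample for border-associated macrophage markers, at 769 CPM. In the other LPS samples most of the border-associated macrophage sum is Stab1.

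The choice of libraries bears on these results, since P2ry12 and Saa3 both follow LPS and genes that do so are tied to that choice. With all libraries kept in the groups of their labels, 18 genes were called, 3 higher and 15 lower, and 7 of them were among the 13: Ccr1l1, Lrmda, Rxfp1, Tmem267, Tdo2, Rxrg and AC161884.1. Among the list members, Ccr1, the MHC class II genes H2-Aa and H2-Eb1 and the dendritic cell marker Cd209a were then called lower, the last 3 named after their values were seen. The list medians that turned sign with all libraries included those of homeostatic microglia (-0.19), MHC class II (-1.56), dendritic cell (-0.71), border-associated macrophage (-0.57) and red blood cell (-3.02) genes. In the WT LPS libraries of number 2, which the Saa3 counts contradict, Ccr1l1 was at 141 and 165 CPM and Rxrg at 1.14 and 1.81 CPM. In the KO LPS ones, KO LPS 1 and KO LPS 5, Ccr1l1 was at 0.818 and 1.68 CPM and Rxrg at 8.50 and 6.11 CPM. Rxrg, Lrmda, Rxfp1, Tmem267, Liph and AC161884.1 lay outside the WT LPS range in both, on the KO side. The other called genes did not. In KO LPS 5, Camk2b (1.89 CPM), Rab4a (1.89), Nrgn (1.38) and Tdo2 (1.205) lay inside the WT LPS range, and Ccr1l1 lay above WT LPS 5. Hpca lay inside it in both (0.909 and 0.732), and Ppp1r1b in KO LPS 1 (0.818).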

How the data were processed

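Members, gene lists and rules were chosen with earlier results of these data known. The authors deposited raw counts per gene, 1 table for each experiment, and the counts are whole numbers and not normalized. Per the submitters' processing notes the tools were FastQC, STAR 2.6.1, featureCounts, Subread and DESeq2, with the build GRCm39; their settings and the strand option are not given in the sources used here. Per the file headers of the sex experiment, coordinates are on GRCm39, and gene lengths there equal whole spans with introns. Every column name matched 1 sample, leaving 0 unmatched. RNA was polyadenylated and sequenced on a NovaSeq instrument, per the labels' protocols. Of the repeat libraries of the sex experiment, none was analysed here.

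Of 53278 genes, 15816 passed filterByExpr of edgeR 4.0.16 (R 4.3.3); P2ry12 and Saa3 were then set aside, leaving 15814. Counts were scaled by TMM and fitted with edgeR's robust quasi-likelihood model, a mean per group for the 4 groups and the library set as covariate. P-values were adjusted by Benjamini-Hochberg over all genes tested, and a gene is called under 0.05. The biological coefficient of variation was 36.4%. The sex experiment was fitted separately, with a mean per sex and genotype. The procedure was tested on simulated data. Genes are named when called, when lowest in p until 24 are reached, when among the 3 most abundant members of a list, or when within 2 Mb of P2ry12. Some genes that this rule names are not reported here. Alternatives were DESeq2 1.42.0, RLE scaling, no filter, a filter at 5 CPM, a fold threshold of 1 on the log2 scale, the 2 LPS groups alone, no set covariate, each set alone, a replicate block, the near-identical pair apart or with 1 left out, all libraries, and each LPS sample left out. Fits without WT LPS 7 and KO ns 6, and without WT LPS 7 in the 2 LPS groups, were added after seeing the data.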

Additional observations from a re-analysis of the deposited data

Results flagged for a closer look

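The lowest or highest of the 6 samples of a group was set apart here by Dixon's critical value on the log2 scale. Its gap to the nearest sample, divided by the range of the group, had to exceed that value. Chance alone exceeds it in about 1 in 20 groups. Of 104 group values examined, 17 exceeded it, 13 of them in WT LPS 7.

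Among single genes, WT LPS 7 was far from the other WT LPS samples for P2ry12 (1120 CPM), Saa3 (10200 CPM), Rab4a (0.74 CPM), Tdo2 (3.85 CPM), D330045A20Rik (29.7 CPM) and Med12l (14 CPM). It was the lowest of the group for Rab4a and Med12l and the highest for the others. WT LPS 5 was far below the others for Ccr1l1 (1.21 CPM), and KO LPS 7 was far above the other KO LPS samples for Slc7a11 (24.6 CPM).

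Among summed lists, WT LPS 7 was highest for cytokines and chemokines (16400 CPM), disease-associated microglia genes (28800 CPM), chemokine receptors of the Ccr1 cluster (2100 CPM), genes of the mitochondrial genome (101000 CPM), neutrophil markers (14300 CPM) and ependymal and choroid plexus markers (15.2 CPM). It was lowest for border-associated macrophage markers (769 CPM), a sum that was mostly Stab1 in the other WT LPS samples. KO LPS 7 was lowest of its group for purinergic signalling (1380 CPM) and for the Ccr1 cluster (138 CPM).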

How the results depend on the processing

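The 13 calls between KO LPS and WT LPS became 77 with DESeq2, 2 at a mean of at least 5 CPM, 0 with WT LPS and KO LPS alone, 0 with library set 2 alone (fewer samples), 20 with the near-identical pair unsummed, and 34 without WT LPS 7 and KO ns 6. Leaving out 1 LPS sample gave 3 to 22 calls, and leaving out the summed pair 4. The 12 calls at ns became 122 with DESeq2 and 59 without WT LPS 7 and KO ns 6, the interaction went from 0 to 6 and 1, and the 137 calls of the sex experiment became 359 with DESeq2. Apart from the fewer samples of a set, the cause was not tested. Over 26 alternatives the 13 genes kept their sign in all 327 fits that gave a value, 176 with the call and 151 without it.

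The replicate block, by library set and number, gave 12 calls at LPS, 8 of them among the 13, 15 at ns, 0 for the interaction, and 181 in the sex experiment by the number in the titles. Same-numbered samples of a set did not deviate together (mean r 0.003 over 5 pairs, from -0.333 to 0.434, against 0.001 over 13 other pairs), so the numbers are not shown to pair the samples. Genes below about 1 CPM rest on few counts: Rxfp1 had at most 2 in a KO library.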

Other observations

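Without WT LPS 7 and KO ns 6, 34 genes were called between KO LPS and WT LPS, 20 higher and 14 lower, and those beyond the 13 were named after their values were seen. Mrc2, an endocytic receptor for collagen, was at 14.1 through 22.5 to 41.3 CPM in 5 WT LPS samples and 48.4 through 59.1 to 69.2 in 6 KO LPS samples (log2 fold change 1.23 ± 0.20, edgeR adjusted p 0.00759). Lag3, an inhibitory receptor that binds MHC class II, was at 142 through 164 to 194 CPM and 233 through 285 to 304 (0.71 ± 0.14, adjusted p 0.0326). Psat1, an aminotransferase of serine synthesis, was at 88.5 through 99.7 to 105 CPM and 138 through 148 to 160 (0.58 ± 0.10, adjusted p 0.0147). For all 3 the KO samples lay above those WT samples. The same samples chose the genes, so this adds no support to the calls. The share of all genes without overlap in these samples was not computed.

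Traf1 was lower in KO in that fit (-1.01 ± 0.16, adjusted p 0.00531), at 6.60 through 8.48 to 12.3 CPM in WT LPS and 3.65 through 4.44 to 5.98 in KO LPS. Siglece, an inhibitory receptor for sialic acids, was at 239 through 305 to 405 CPM and 213 through 221 to 258 (-0.47 ± 0.10, adjusted p 0.0487), with overlapping groups. With WT LPS 7 and KO ns 6 included, the adjusted p-values were 0.194 for Mrc2, 0.158 for Lag3, 0.757 for Psat1, 0.0571 for Traf1 and 0.63 for Siglece.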
